A study of Mus musculus with 24 samples.

Results

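The 8 genes described here are read-outs and regulators of canonical Wnt signalling, chosen by symbol from the 17951 genes of the deposited bead array table: *Axin2*, *Lef1*, *Ccnd1*, *Nkd1*, *Tcf7*, *Sfrp1*, *Sfrp2* and *Ctnnb1*. Each symbol has 1 row, and all 8 were among the 10371 genes that passed the detection filter. They were measured in total RNA of whole mouse kidneys at E18.5, late in gestation, on 24 Illumina arrays that fall into 8 groups of 3. The 3 mutants are homozygous for a conditional *Wt1* allele (*Wt1* co/co) and carry *Nes*-Cre, *Wnt4*+/CreGFP or *Pax8*+/Cre, each of which deletes *Wt1* at another stage of nephron formation; they are called the *Nes*-, *Wnt4*- and *Pax8*-driven mutants below. The 5 control groups are *Wt1* co/co without Cre, *Nes*-Cre, *Wnt4*+/CreGFP and *Pax8*+/Cre with wild-type *Wt1*, and wild type without Cre. All groups share the age and the strain label C57BL/6, whereas the methods of the study give a mixed C57BL/6 and 129Ola background. The labels call each sample a kidney of 1 embryo, and litters are not given.

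The drivers limit what each mutant models. *Nes*-Cre is a transgene active in the kidney mesenchyme, and it leaves some nephrons with *Wt1*. The *Pax8*-driven Cre is placed in the *Pax8* locus and is also active in the ureteric bud, and CreGFP is placed in the *Wnt4* locus, so both of these groups and their controls have 1 disrupted copy of the driver gene. *Wt1* itself was not analysed here, so its loss was not checked in these arrays. In whole kidneys, fewer cells of a type and less RNA per cell cannot be told apart.

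In canonical Wnt signalling, a secreted Wnt protein binds a Frizzled receptor with an Lrp co-receptor and stops the destruction complex from degrading β-catenin, which *Ctnnb1* encodes. β-catenin then enters the nucleus and activates genes together with Tcf/Lef factors, among them *Lef1* and *Tcf7*. *Axin2* and *Nkd1* are feedback inhibitors and widely used targets of the pathway, *Ccnd1* encodes the cell cycle regulator cyclin D1, and *Sfrp1* and *Sfrp2* encode secreted proteins that bind Wnts. In the embryonic kidney, Wnt9b from the ureteric bud and Wnt4 from the induced mesenchyme drive the conversion of mesenchyme to nephron epithelium. The study describes the Wnt9b signal as canonical and the step under Wnt4 as probably non-canonical.

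The arrays form 4 sets of 6, each a mutant (or *Nes*-Cre) with its control, and background intensities lay between 152 and 181 where wild type and *Nes*-Cre were hybridised and between 48.1 and 69.9 in the other 3 sets. The number of genes detected, at a detection p under 0.01, ranged from 7458 to 9681 per array. *Nes*-Cre *Wt1* co/co replicate 1 stood apart, with a root mean square log2 distance of 0.948 to the other arrays of its group, against 0.527 and 0.545 for these and 0.171 to 0.318 in all other groups. The methods state that 1 *Nes*-Cre *Wt1* co/co sample failed quality control without naming it, so all 3 were kept, and leaving out replicate 1 was one of the alternatives. Markers of kidney cell types moved with the mutants, counted as limma calls at an adjusted p under 0.05. Among tested markers, 10, 8 and 3 of 11 for the proximal tubule and 6, 4 and 4 of 8 for the podocyte were called lower in the *Nes*-, *Wnt4*- and *Pax8*-driven mutants. Of all 10371 tested genes, 1466, 888 and 327 were called lower there, and 25.8%, 15.6% and 5.00% were called in either direction. In the *Nes*-driven mutant, 10 of 11 macrophage and 8 of 9 striated muscle markers were called higher, where 11.7% of all tested genes were. The summed muscle level was 2305 to 42770 (linear scale) against 1008 to 1135 in *Wt1* co/co. The part of these shifts in the changes of the Wnt genes was not tested.

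The promoter windows of the 3 genes that rose together in 1 mutant (*Axin2*, *Sfrp2* and *Ctnnb1*) are shown first, with the only window of the 8 genes that holds a Tcf/Lef motif (*Lef1*). They are RefSeq windows on GRCm38.p6, from 250 bases before to 50 bases after a start site, and RefSeq gave 11 windows for 6 of the 8 genes. Searched on both strands was a Tcf/Lef motif, the letters CTTTG followed by AA, AT, TA or TT, shown in capitals where found.
*Axin2*, chr11:108920099-108920398, + strand: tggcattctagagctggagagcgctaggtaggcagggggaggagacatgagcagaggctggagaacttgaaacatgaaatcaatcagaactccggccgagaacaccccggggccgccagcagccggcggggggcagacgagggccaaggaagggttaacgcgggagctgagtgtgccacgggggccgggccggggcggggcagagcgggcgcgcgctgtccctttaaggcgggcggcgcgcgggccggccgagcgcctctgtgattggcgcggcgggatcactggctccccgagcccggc
*Sfrp2*, chr3:83766071-83766370, + strand: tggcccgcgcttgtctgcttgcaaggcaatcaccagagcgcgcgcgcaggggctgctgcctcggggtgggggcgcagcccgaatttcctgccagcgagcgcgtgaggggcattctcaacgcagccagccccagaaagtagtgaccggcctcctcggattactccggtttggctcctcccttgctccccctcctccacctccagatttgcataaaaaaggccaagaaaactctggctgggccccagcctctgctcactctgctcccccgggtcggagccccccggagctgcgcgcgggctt
*Ctnnb1*, chr9:120933150-120933449, + strand: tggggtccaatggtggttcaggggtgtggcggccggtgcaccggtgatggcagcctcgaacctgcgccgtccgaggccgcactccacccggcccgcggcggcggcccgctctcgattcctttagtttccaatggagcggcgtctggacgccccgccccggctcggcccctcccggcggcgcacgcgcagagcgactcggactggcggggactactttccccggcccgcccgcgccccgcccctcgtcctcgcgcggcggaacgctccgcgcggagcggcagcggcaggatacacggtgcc
*Lef1*, chr3:131156044-131156343, + strand: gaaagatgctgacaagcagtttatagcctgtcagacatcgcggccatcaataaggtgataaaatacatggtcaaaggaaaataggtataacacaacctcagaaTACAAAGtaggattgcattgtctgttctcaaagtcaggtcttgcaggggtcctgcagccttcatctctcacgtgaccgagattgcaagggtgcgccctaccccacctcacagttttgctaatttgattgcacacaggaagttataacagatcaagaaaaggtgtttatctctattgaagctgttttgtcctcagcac
The match in *Lef1* is 1 of 11 windows of these genes, and 16.9% of the 32851 windows in the RefSeq table held at least 1. The windows of *Axin2*, *Sfrp2* and *Ctnnb1* shown have a GC content of 70%, 66% and 75.3%, against a median of 52.7% over all windows. No match says only that these letters are not in these windows.

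All of these genes but *Lef1* were detected in most arrays. *Axin2*, *Ccnd1*, *Sfrp1* and *Sfrp2* were detected in all 24 arrays, *Ctnnb1* in 21, *Tcf7* in 18 and *Nkd1* in 17. *Lef1* was detected in only 3 arrays, 2 of *Wt1* co/co and 1 of *Nes*-Cre *Wt1* co/co, so it just passed the filter and lay near the background in every group, with normalized log2 levels of 4.38 to 5.17 on a scale that starts at 4.18. *Tcf7* was detected in none of the 3 wild-type arrays and in 1 of 3 *Nes*-Cre arrays, the set with the highest background. *Ctnnb1* missed the detection threshold in 2 *Pax8*+/Cre *Wt1* co/co arrays and 1 *Pax8*+/Cre array although its intensity in these 6 arrays was 1449 to 3349. Levels in different sets were normalized together, but group and set cannot be told apart when groups of different sets are compared.

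**Figure D1:**
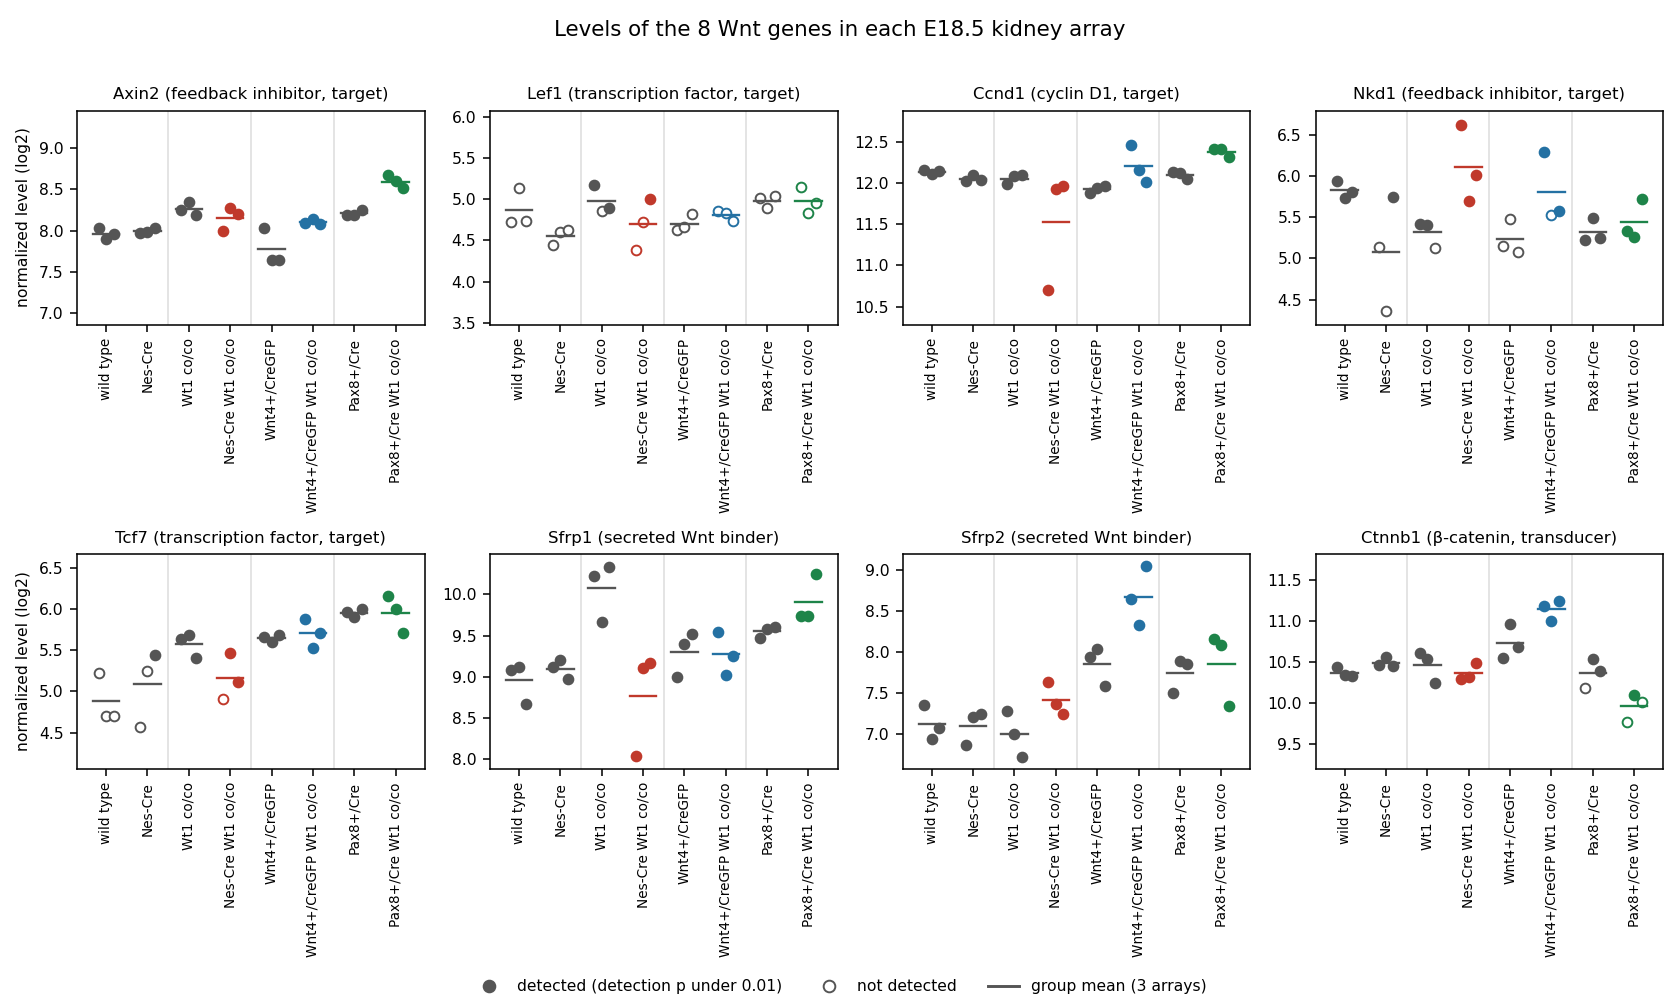
Normalized log2 level (vertical axis) of each of the 8 genes in every array, by group along the horizontal axis, with grey lines between array sets; open points were not detected and bars are means of 3 arrays. *Nes*-Cre *Wt1* co/co replicate 1 is the lowest of the 24 arrays for *Ccnd1* (10.70) and *Sfrp1* (8.04), and the 3 *Wnt4*+/CreGFP *Wt1* co/co arrays are the highest for *Ctnnb1*.

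Each gene had its own order of groups. *Axin2* was highest in *Pax8*+/Cre *Wt1* co/co (8.59 ± 0.07, SD, n = 3), above every other group without overlap, and lowest in *Wnt4*+/CreGFP (7.78 ± 0.22). Between these, *Wt1* co/co, *Pax8*+/Cre, *Nes*-Cre *Wt1* co/co and *Wnt4*+/CreGFP *Wt1* co/co followed each other at means of 8.26, 8.21, 8.16 and 8.11, each overlapping its neighbour. *Ctnnb1* and *Sfrp2* were highest in *Wnt4*+/CreGFP *Wt1* co/co (11.14 ± 0.13 and 8.67 ± 0.36), and neither overlapped the next group. *Ctnnb1* was lowest in *Pax8*+/Cre *Wt1* co/co (9.96 ± 0.17), below all other groups, and *Sfrp2* was lowest in *Wt1* co/co (7.01 ± 0.28), which overlapped *Nes*-Cre and wild type. *Sfrp1* was highest in *Wt1* co/co (10.07 ± 0.36) and lowest in *Nes*-Cre *Wt1* co/co (8.77 ± 0.64), so the 2 groups of 1 set held both ends of its range. *Ccnd1* differed little between groups, with 7 of 8 means between 11.92 and 12.38 and *Nes*-Cre *Wt1* co/co at 11.53 ± 0.72. For *Nkd1*, *Tcf7* and *Lef1*, most neighbours in the order overlapped.

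Deletion of *Wt1* with *Nes*-Cre was compared with *Wt1* co/co, the control of its own array set. In these kidneys *Sfrp1* fell and *Nkd1* rose, and the other 6 genes did not pass the test. Calls are at an adjusted p under 0.05 (limma, Benjamini-Hochberg over all tested genes), and 2 of 8 genes were called, where 25.8% of all tested genes were (11.7% higher and 14.1% lower). The median change of the 8 was -0.19 (log2), against -0.005 over all tested genes. *Sfrp1*, *Nkd1* and *Ccnd1* had no overlap between mutants and controls, as was so for 33.9% of tested genes. In the mutants, the summed level of 15 renal vesicle and S-shaped body markers, a list that holds *Ccnd1* and *Sfrp2*, was 3454 to 6649 against 8594 to 9348 in the controls, with 7 of 15 lower, and that of 14 stroma markers was 16980 to 31510 against 14000 to 16150, with 5 of 14 higher. *Ccnd1*, at log2 means of 11.53 in the mutants and 12.05 in the controls, weighs heavily in the first of these linear sums.

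The secreted Wnt binder *Sfrp1* had log2 levels of 10.23, 9.66 and 10.34 in *Wt1* co/co and of 8.04, 9.11 and 9.16 in *Nes*-Cre *Wt1* co/co. Every mutant array was below every control array, and replicate 1 was lowest. The level fell by 1.30 on the log2 scale (SE 0.25, adjusted p = 0.00109), or 2.47-fold. Without replicate 1 the change was -0.94 (adjusted p = 0.00241). The *Wt1* co/co arrays were themselves above those of the other Cre-negative group, wild type (8.67 to 9.12), and of *Nes*-Cre (8.97 to 9.20). With *Nes*-Cre kidneys as the control, which is the comparison the study made, the change of *Sfrp1* was -0.33 (adjusted p = 0.312), and without replicate 1 it turned to 0.04 (adjusted p = 0.894). The comparison with *Wt1* co/co already lies within its array set. With the change of *Nes*-Cre against wild type (0.14, adjusted p = 0.988) subtracted from it, the change of *Sfrp1* was -1.44 (adjusted p = 0.0101). Fitted on the 6 arrays alone, the adjusted p was 0.127. *Sfrp2*, its relative, was 7.29, 7.01 and 6.73 in the controls and 7.64, 7.37 and 7.25 in the mutants, a change of 0.41 (SE 0.22, adjusted p = 0.173) with overlapping groups.

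The feedback inhibitor *Nkd1* had log2 levels of 5.42, 5.41 and 5.12 in *Wt1* co/co and of 6.63, 5.69 and 6.01 in *Nes*-Cre *Wt1* co/co, with no overlap. It rose by 0.79 (SE 0.28, adjusted p = 0.0414), or 1.73-fold, close to the detection limit: 2 of 3 control arrays detected it. The size depended on the background correction, with 0.12 under the default correction of limma and 0.42 under none (adjusted p = 0.0454 and 0.0455). The change was 0.34 (adjusted p = 0.0525) in the deposited ratios, which also differ in normalization. Without mutant replicate 1 the change was 0.53 (adjusted p = 0.164), without mutant replicate 3 it was 0.84 (adjusted p = 0.0558), and without any 1 control array the adjusted p was 0.0707 to 0.117. Against *Nes*-Cre kidneys, which lie in another array set, *Nkd1* rose by 1.03 (adjusted p = 0.00685). With the change of *Nes*-Cre against wild type (-0.75, adjusted p = 0.392) subtracted, it was 1.54 (adjusted p = 0.0125). That subtracted change was not called, and 1 of 3 *Nes*-Cre arrays detected *Nkd1*. The 6 arrays of the mutant and *Wt1* co/co alone gave an adjusted p of 0.163. The other feedback gene, *Axin2*, was 8.24, 8.35 and 8.19 in the controls and 7.99, 8.28 and 8.21 in the mutants, a change of -0.10 with a 95% interval of -0.31 to 0.10. Its direction depended on the control: the change was 0.16 (adjusted p = 0.199) against *Nes*-Cre kidneys. Without replicate 1 it was -0.02 against *Wt1* co/co and 0.25 (adjusted p = 0.0587) against *Nes*-Cre kidneys.

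*Ccnd1* was at 11.98, 12.08 and 12.10 in *Wt1* co/co and at 10.70, 11.93 and 11.96 in *Nes*-Cre *Wt1* co/co. The groups did not overlap, but 2 mutant arrays lay just below the controls and only replicate 1 was far below. The change was -0.53 (SE 0.21, adjusted p = 0.0718), and -0.11 (adjusted p = 0.444) without replicate 1. Without mutant replicate 2 or 3 it was -0.73 or -0.74 (adjusted p = 0.017 and 0.015), and the deposited ratios gave -0.83 (adjusted p = 0.0105). The Tcf/Lef factors *Tcf7* and *Lef1* changed by -0.41 (adjusted p = 0.125) and -0.27 (adjusted p = 0.155), with overlapping groups, and these became -0.28 and -0.12 (adjusted p = 0.332 and 0.562) without replicate 1. Leaving out mutant replicate 2 for *Tcf7* or 3 for *Lef1* gave adjusted p = 0.0475 and 0.0317. Their direction depended on the scaling and on the control, with 0.01 and 0.34 when each array was scaled to its 75th percentile and 0.08 and 0.14 against *Nes*-Cre kidneys. *Ctnnb1* differed by -0.10, with a 95% interval of -0.36 to 0.16.

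Deletion with *Wnt4*+/CreGFP was compared with *Wnt4*+/CreGFP kidneys. None of the 8 was called by limma in the difference from the *Nes*-driven mutant, where 2.67% of all tested genes were. Against their own control *Sfrp2*, *Ctnnb1* and *Axin2* rose. These are 3 of 8 genes called, all higher, where 15.6% of all tested genes were called and 7.09% were called higher. The median change of the 8 was 0.31, against 0.06 over all tested genes. In 5 genes the groups did not overlap, always with the mutants higher, as for 25.6% of tested genes (44.1% in either direction). The summed level of 14 stroma markers was 17400 to 19940 in these mutants and 13340 to 14810 in the controls, and that of 9 cap mesenchyme markers 1817 to 2598 against 1457 to 1704. Of the 14 stroma markers 2 rose and none fell by limma, and of the 9 cap mesenchyme markers 1 rose, where 7.09% of all tested genes were called higher. The part of these markers in the changes below was not tested.

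*Sfrp2* had log2 levels of 7.94, 8.04 and 7.59 in *Wnt4*+/CreGFP and of 8.65, 8.33 and 9.04 in *Wnt4*+/CreGFP *Wt1* co/co. All mutants were above all controls. The gene rose by 0.82 (SE 0.22, adjusted p = 0.0147), or 1.77-fold. Without control replicate 3 or mutant replicate 3 it was at 0.69 and 0.64 (adjusted p = 0.0782 and 0.0822), and in the deposited ratios at 0.40 (adjusted p = 0.301). *Sfrp1* did not move with it, at 9.00 to 9.52 in the controls and 9.02 to 9.55 in the mutants, a difference of -0.03 with a 95% interval of -0.55 to 0.49.

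*Ctnnb1*, the gene of β-catenin, had log2 levels of 10.55, 10.96 and 10.68 in the controls and of 11.18, 10.99 and 11.25 in the mutants. The groups did not overlap, but the highest control and the lowest mutant were close. The gene rose by 0.41 (SE 0.13, adjusted p = 0.0322), or 1.33-fold. The call was lost without control replicate 1 (adjusted p = 0.152) or 3 (0.1) and without mutant replicate 1 (0.105) or 3 (0.114), and the deposited ratios gave a change of 0.06 (adjusted p = 0.86).

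The target and feedback inhibitor *Axin2* had log2 levels of 8.03, 7.65 and 7.65 in *Wnt4*+/CreGFP and of 8.09, 8.14 and 8.08 in the mutants. The mutants were close together, and control replicate 1 lay near them while the other 2 were lower. *Axin2* rose by 0.33 (SE 0.10, adjusted p = 0.0266), or 1.26-fold. Leaving out control replicate 2 or 3 gave adjusted p = 0.125 and 0.128, leaving out mutant replicate 1, 2 or 3 gave 0.0688, 0.0787 and 0.0562, the 6 arrays alone gave 0.0737, and the deposited ratios gave a change of -0.02 (adjusted p = 0.969). *Nkd1* was 5.16, 5.48 and 5.08 in the controls, where it was not detected, and 6.29, 5.53 and 5.58 in the mutants, detected in 2 of 3. The difference was 0.56 (95% interval -0.01 to 1.14, adjusted p = 0.179), and 0.32 without mutant replicate 1. *Ccnd1* was higher in all 3 mutants (12.02 to 12.47) than in the controls (11.88 to 11.96), by 0.29 with an adjusted p = 0.391, and this became 0.0201 with *Nes*-Cre *Wt1* co/co replicate 1, whose spread enters the shared fit, left out. The deposited ratios gave -0.08 for *Ccnd1*. *Tcf7* differed by 0.05 (95% interval -0.35 to 0.46), and *Lef1* was not detected in either group.

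**Figure D2:**
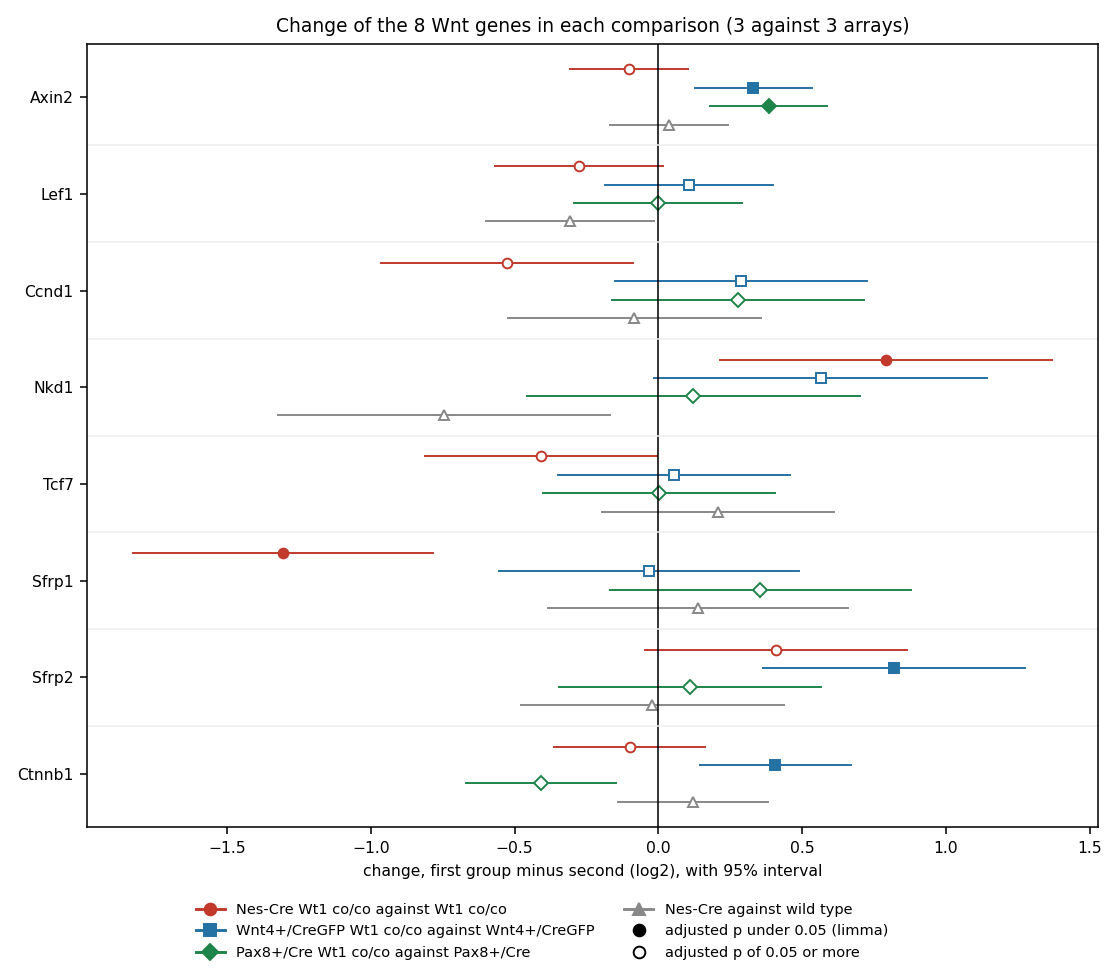
Change in log2 level (horizontal axis, first group minus second, with its 95% interval) of each gene in the 4 comparisons of 3 against 3 arrays; filled points have an adjusted p under 0.05. Filled are *Sfrp1* (-1.30) and *Nkd1* (0.79) in the *Nes*-driven mutant, *Sfrp2*, *Ctnnb1* and *Axin2* (0.82, 0.41 and 0.33) in the *Wnt4*-driven mutant and *Axin2* (0.38) in the *Pax8*-driven mutant.

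Deletion with *Pax8*+/Cre, compared with *Pax8*+/Cre kidneys, raised *Axin2* and gave no other call among the 8 genes. This is 1 of 8, where 5.00% of all tested genes were called and 1.85% were called higher, and the median change was 0.12 against 0.04 over all tested genes. The groups did not overlap in 4 genes, as for 32.7% of tested genes. The summed level of the renal vesicle markers was 9771 to 10480 against 9276 to 9450, with none called by limma. This linear sum includes *Sfrp2* and *Ccnd1*, and *Ccnd1*, at log2 means of 12.38 in the mutants and 12.10 in the controls, weighs heavily in it. It is therefore no separate measure of these cells, and the part of the markers in the changes below was not tested.

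*Axin2* had log2 levels of 8.19, 8.19 and 8.25 in *Pax8*+/Cre and of 8.67, 8.60 and 8.52 in *Pax8*+/Cre *Wt1* co/co. Both groups were tight and well separated. It rose by 0.38 (SE 0.10, adjusted p = 0.0266), or 1.30-fold. The change was 0.32 to 0.53 under every other setting, and the call was lost in the deposited ratios (adjusted p = 0.0862) and without mutant replicate 1 or 2 (0.0966 and 0.0826) or control replicate 1, 2 or 3 (0.0832, 0.101 and 0.0627). *Ctnnb1* was 10.18, 10.53 and 10.38 in the controls and 9.76, 10.10 and 10.02 in the mutants. All mutants were below all controls, a change of -0.41 (SE 0.13) with an adjusted p = 0.0691, which became 0.0417 with the default background correction and 0.0368 without replicate 1 of the *Nes*-driven mutant. With 1 array of these 6 left out the adjusted p was 0.0531 to 0.307, and the deposited ratios gave a change of -0.18 (adjusted p = 0.528). *Sfrp1* was 9.48, 9.58 and 9.61 in the controls and 9.74, 9.74 and 10.25 in the mutants, without overlap, a change of 0.36 (adjusted p = 0.51). *Ccnd1* was 12.13, 12.12 and 12.04 in the controls and 12.41, 12.41 and 12.32 in the mutants. That gap of 0.28 had an adjusted p = 0.545, which became 0.0454 without replicate 1 of the *Nes*-driven mutant, and it was 0.13 (adjusted p = 0.794) with 75th percentile scaling. *Nkd1*, *Sfrp2*, *Tcf7* and *Lef1* differed by 0.12, 0.11, 0.00 and -0.00, and their groups overlapped.

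The *Nes*-Cre transgene alone, compared with wild type, changed none of the 8 genes by the limma test, where 0.164% of all tested genes were called. At an unadjusted p under 0.05 there were 2, *Nkd1* at -0.75 (adjusted p = 0.392) and *Lef1* at -0.31 (adjusted p = 0.537). *Nkd1* was 5.94, 5.74 and 5.81 in wild type and 5.14, 4.37 and 5.74 in *Nes*-Cre, where only 1 of 3 arrays detected it. The groups did not overlap in 3 genes, *Lef1*, *Ccnd1* and *Ctnnb1*, as for 17.6% of tested genes, and no alternative called any of the 8 in this comparison.

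The effects of the 3 drivers were set against each other as differences of effects, each with its own control, which gave 24 tests among the 8 genes. The kind of control differs: the *Nes*-driven mutant is set against *Wt1* co/co without Cre. The *Wnt4*- and *Pax8*-driven mutants are set against kidneys with Cre and wild-type *Wt1*. In differences with the *Nes*-driven mutant, driver and kind of control therefore cannot be told apart. *Sfrp1* differed between the *Nes*- and *Pax8*-driven mutants by -1.66 (SE 0.35, adjusted p = 0.0197), where 2.02% of tested genes were called and 1.19% were called lower. With *Nes*-Cre kidneys as the control it was -0.68 (adjusted p = 0.193), and -0.31 (adjusted p = 0.446) also without replicate 1 of the *Nes*-driven mutant, and leaving out *Wt1* co/co replicate 1 or *Pax8*+/Cre replicate 1 gave adjusted p = 0.0577 and 0.0563. Between the *Nes*- and *Wnt4*-driven mutants *Sfrp1* differed by -1.27 (adjusted p = 0.0586), or by -0.29 with *Nes*-Cre kidneys as the control and 0.07 also without replicate 1, and none of the 8 was called there by limma (4 at an unadjusted p under 0.05, and 2.67% of all tested genes called). *Ctnnb1* differed by 0.81 between the *Wnt4*- and *Pax8*-driven mutants (SE 0.18, adjusted p = 0.0682), having been higher than control in all arrays of one and lower in all arrays of the other. None of the 8 was called in that pair either (2 at an unadjusted p under 0.05, and 0.231% of all tested genes called). The adjusted p of *Ctnnb1* became 0.0198 without replicate 1 of the *Nes*-driven mutant, and 0.0399 with the default background correction. With 1 of the 12 arrays of this pair left out it was 0.0429 to 0.235, and under 0.05 only without *Wnt4*+/CreGFP replicate 2. *Axin2*, which passed the test in the *Wnt4*- and *Pax8*-driven mutants, differed between them by -0.05 (95% interval -0.34 to 0.24), and from the *Nes*-driven mutant by -0.43 and -0.49 (*Nes*-driven minus the other, adjusted p = 0.0934 and 0.0709). With *Nes*-Cre kidneys as the control these 2 were -0.17 and -0.22 (adjusted p = 0.408 and 0.281), and -0.09 and -0.14 also without replicate 1. *Sfrp2* rose in the *Wnt4*-driven mutant, but its difference from the *Nes*-driven mutant was -0.41 (95% interval -1.05 to 0.24).

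**Figure D3:**
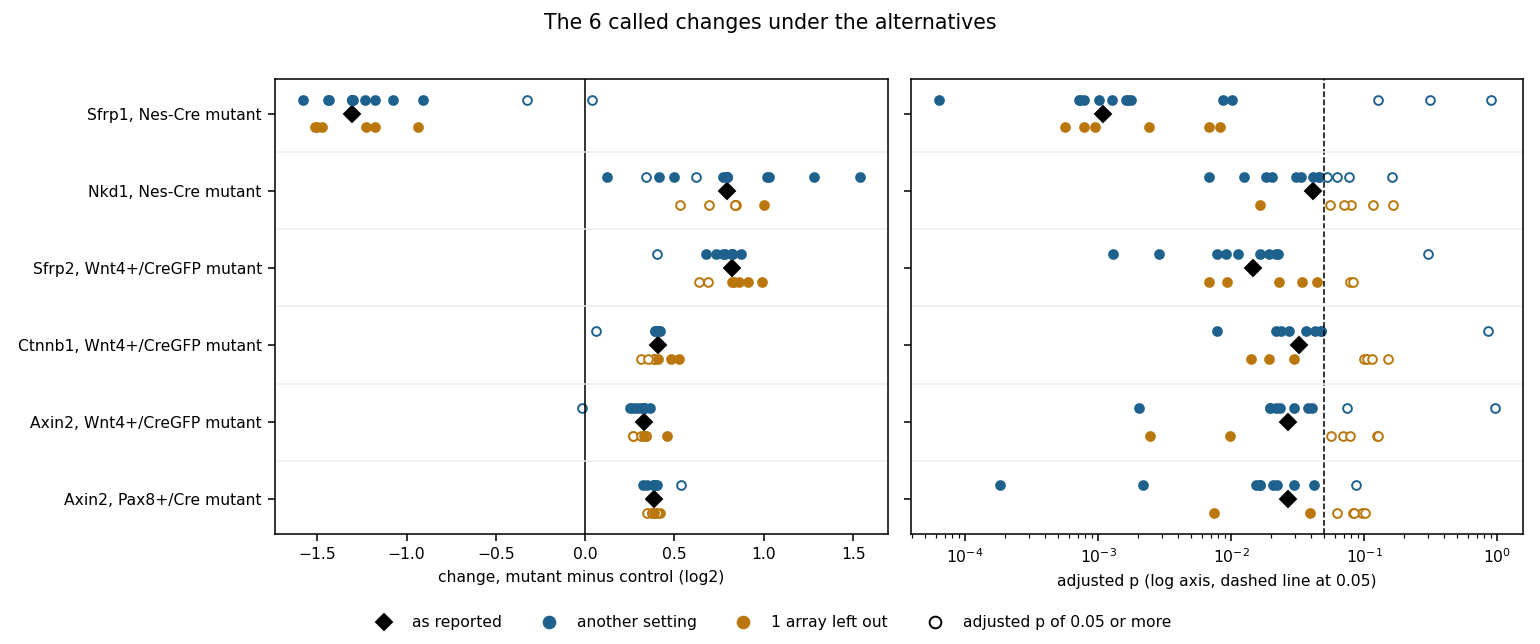
The 6 called changes under the alternatives: change in log2 level (left) and adjusted p on a log axis (right), as reported (diamonds), with another setting (blue) or with 1 array left out (orange); open points have an adjusted p of 0.05 or more. Only *Sfrp1* kept its call with each array left out (adjusted p up to 0.00825). Those fits share the spread of all groups, and on the 6 arrays of its set alone the adjusted p of *Sfrp1* was 0.127. *Sfrp1* and *Axin2* in the *Wnt4*-driven mutant each have 1 point on the other side of 0.

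The rest of the pathway was described from 6 lists of 143 genes, of which 94 were tested. In the *Nes*-driven mutant 9 rose and 16 fell (26.6%, beside 25.8% of all tested genes), in the *Wnt4*-driven mutant 11 rose and 3 fell (14.9% beside 15.6%), and in the *Pax8*-driven mutant 4 rose and none fell by limma (4.26% beside 5.00%). Fitted on the 6 arrays of the *Nes*-driven set alone, its 25 calls became 0, and in the deposited ratios the 14 of the *Wnt4*-driven mutant became 4. None was called in *Nes*-Cre against wild type, where 0.164% of all tested genes were. The median changes of the 94 were -0.04, 0.16 and 0.11 in the 3 mutants, against -0.005, 0.06 and 0.04 over all tested genes.

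Among 14 tested ligands and factors of ligand release, 1 rose and 4 fell in the *Nes*-driven mutant. Of all tested genes 11.7% were called higher and 14.1% lower there. *Wnt5a*, a ligand known mainly for signalling without β-catenin, fell by 0.70 (from 9.13 to 8.43, adjusted p = 0.000959), and *Gpr177*, the older symbol of *Wls*, which carries Wnts to the cell surface, fell by 0.41 (adjusted p = 0.00162), but against *Nes*-Cre kidneys its change was 0.07 (adjusted p = 0.503). *Wnt6* rose by 0.89 (adjusted p = 0.00377). *Wnt11* of the ureteric tip and *Wnt8b* were detected in no mutant array and changed by -0.50 and -0.79 (adjusted p = 0.0197 and 0.00522), a direction that turned with 75th percentile scaling (0.09 and 0.01). Against *Nes*-Cre kidneys these were -0.04 and -0.48 (adjusted p = 0.87 and 0.0514). In the *Wnt4*-driven mutant the collecting duct ligand *Wnt7b* rose by 0.49 (adjusted p = 0.0364) and *Wnt4*, the driver locus itself, by 0.47 (8.66 ± 0.13 against 8.18 ± 0.13, adjusted p = 0.0322).

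Of 15 receptors, *Fzd5* passed the test in all 3 mutants, but not in 1 direction. It fell by 0.68 in the *Nes*-driven mutant (8.43 to 8.52 against 9.06 to 9.21, adjusted p = 7.5e-06) and by 0.24 in the *Wnt4*-driven mutant (adjusted p = 0.034), and rose by 0.28 in the *Pax8*-driven mutant (adjusted p = 0.0406). Its effect differed between the *Nes*- and *Pax8*-driven mutants by -0.96 (SE 0.11, adjusted p = 4.72e-05), and this held with each array left out. The *Nes*- minus *Wnt4*-driven difference was -0.44 (adjusted p = 0.0337) and the *Wnt4*- minus *Pax8*-driven difference -0.52 (adjusted p = 0.0477), and these 2 calls were lost in 8 of 12 and 12 of 13 fits with 1 array left out. *Fzd4* and *Fzd3* also fell in the *Nes*-driven mutant, by 0.79 and 0.44 (adjusted p = 0.0218 and 0.0084), and without replicate 1 *Fzd4* was at -0.46 (adjusted p = 0.11). *Fzd2* rose by 0.35 in the *Nes*-driven mutant and by 0.59 in the *Wnt4*-driven mutant (adjusted p = 0.0306 and 0.00148), where the deposited ratios gave -0.04 and 0.21, and the Wnt5a receptor *Ror2* rose by 0.53 in the *Wnt4*-driven and 0.37 in the *Pax8*-driven mutant (adjusted p = 0.00166 and 0.0463).

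Among 11 secreted and membrane inhibitors, 4 rose and 3 fell in the *Nes*-driven mutant, where 11.7% of all tested genes were called higher and 14.1% lower. In the *Wnt4*-driven mutant 1 of them rose, where 7.09% of all tested genes were called higher. The next values are of the *Nes*-driven mutant unless another is named. *Sostdc1*, a secreted Wnt and BMP antagonist, fell by 2.07 (from 11.16 ± 0.13 to 9.08 ± 1.40, adjusted p = 0.00106), and the change was -1.27 without replicate 1 (adjusted p = 1.08e-05). *Notum*, an extracellular enzyme that inactivates Wnts and is itself a Wnt target, rose by 1.05 (from 5.61 ± 0.20 to 6.66 ± 0.04, adjusted p = 0.0037). In the *Wnt4*-driven mutant *Notum* was, as processed here, at least 1.93-fold higher than in controls in which it was not detected (adjusted p = 0.00987). Under the alternatives its change there went down to 0.16 (log2). *Nkd2*, the paralogue of *Nkd1*, and *Dkk3* rose by 1.03 and 0.84 in the *Nes*-driven mutant (adjusted p = 0.0317 and 0.0314), and *Dkk1*, which blocks Lrp co-receptors, fell by 0.69 (adjusted p = 0.0385), but was at 0.15 (adjusted p = 0.649) against *Nes*-Cre kidneys. Without replicate 1, *Nkd2* and *Dkk3* were at 0.33 and 0.31 (adjusted p = 0.0552 and 0.12).

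In the list that joins the destruction complex with cytoplasmic transduction, the casein kinase gene *Csnk1d* rose in the *Nes*- and *Wnt4*-driven mutants, by 0.46 and 0.50 (adjusted p = 0.00308 and 0.00191), and *Csnk1e* rose by 0.50 in the latter (adjusted p = 0.0321). *Gsk3a* and *Dvl1* fell in the *Nes*-driven mutant, by 0.67 and 0.33 (adjusted p = 0.0363 and 0.0217), but against *Nes*-Cre kidneys both were higher, at 0.31 and 0.23 (adjusted p = 0.282 and 0.077). *Dact1* rose by 0.63 (adjusted p = 0.0262), or 0.32 (adjusted p = 0.205) against *Nes*-Cre kidneys. Of 18 nuclear partners of Tcf/Lef, 2 fell in the *Nes*-driven mutant, where 14.1% of all tested genes were called lower. Among them was *Ep300*, a histone acetyltransferase, which fell by 0.43 (adjusted p = 0.0222). *Chd8*, a chromatin remodeller that binds β-catenin, rose by 0.74 in the *Wnt4*-driven mutant (adjusted p = 0.00877).

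Among 18 other targets, only *Jun* rose in all 3 mutants, by 0.95, 1.10 and 0.69 (adjusted p = 0.000576, 0.000136 and 0.0202). It is a target of many pathways and a stress-responsive gene. Its levels were 8.33 to 8.77 against 7.37 to 7.99 in the *Nes*-Cre set, 9.00 to 9.45 against 7.95 to 8.14 in the *Wnt4*+/CreGFP set and 8.60 to 9.12 against 8.00 to 8.38 in the *Pax8*+/Cre set. *Ccnd2*, the relative of *Ccnd1*, fell by 0.57 in the *Nes*-driven mutant (adjusted p = 0.0274), and *Twist1* rose by 0.45 in the *Wnt4*-driven mutant (adjusted p = 0.0251). *Cd44* was, as processed here, at least 1.38-fold higher in the *Pax8*-driven mutant than in controls in which it was not detected (adjusted p = 0.0295). Under the alternatives the change of *Cd44* went down to 0.04 (log2), and its call was lost in 9 of 17. Of the pathway genes named here, *Wnt6*, *Wnt8b*, *Wnt5a*, *Gpr177*, *Fzd5*, *Fzd3*, *Sostdc1*, *Notum*, *Csnk1d* and *Jun* in the *Nes*-driven mutant and *Fzd2*, *Ror2*, *Csnk1d* and *Jun* in the *Wnt4*-driven mutant kept their call with each single array left out. Other settings took some of these calls, and on the 6 arrays of its set alone none of those in the *Nes*-driven mutant was kept. In the deposited ratios *Csnk1d* and *Jun* in the *Nes*-driven mutant were at 0.05 and 0.43 (adjusted p = 0.797 and 0.0676). For *Csnk1d* and *Ror2* in the *Wnt4*-driven mutant the lowest change under the alternatives was 0.14 and 0.15, and the highest adjusted p 0.541 and 0.586. *Jun* kept its call there under all 18 alternatives. Lost without replicate 1 of the *Nes*-driven mutant were the calls there of *Wnt11*, *Fzd4*, *Fzd2*, *Nkd2*, *Dkk3*, *Dkk1*, *Gsk3a* and *Ep300*. Each call of a mutant against its control outside the first of these lists was lost without at least 1 array, *Jun* in the *Pax8*-driven mutant without any of 4.

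**Figure D4:**
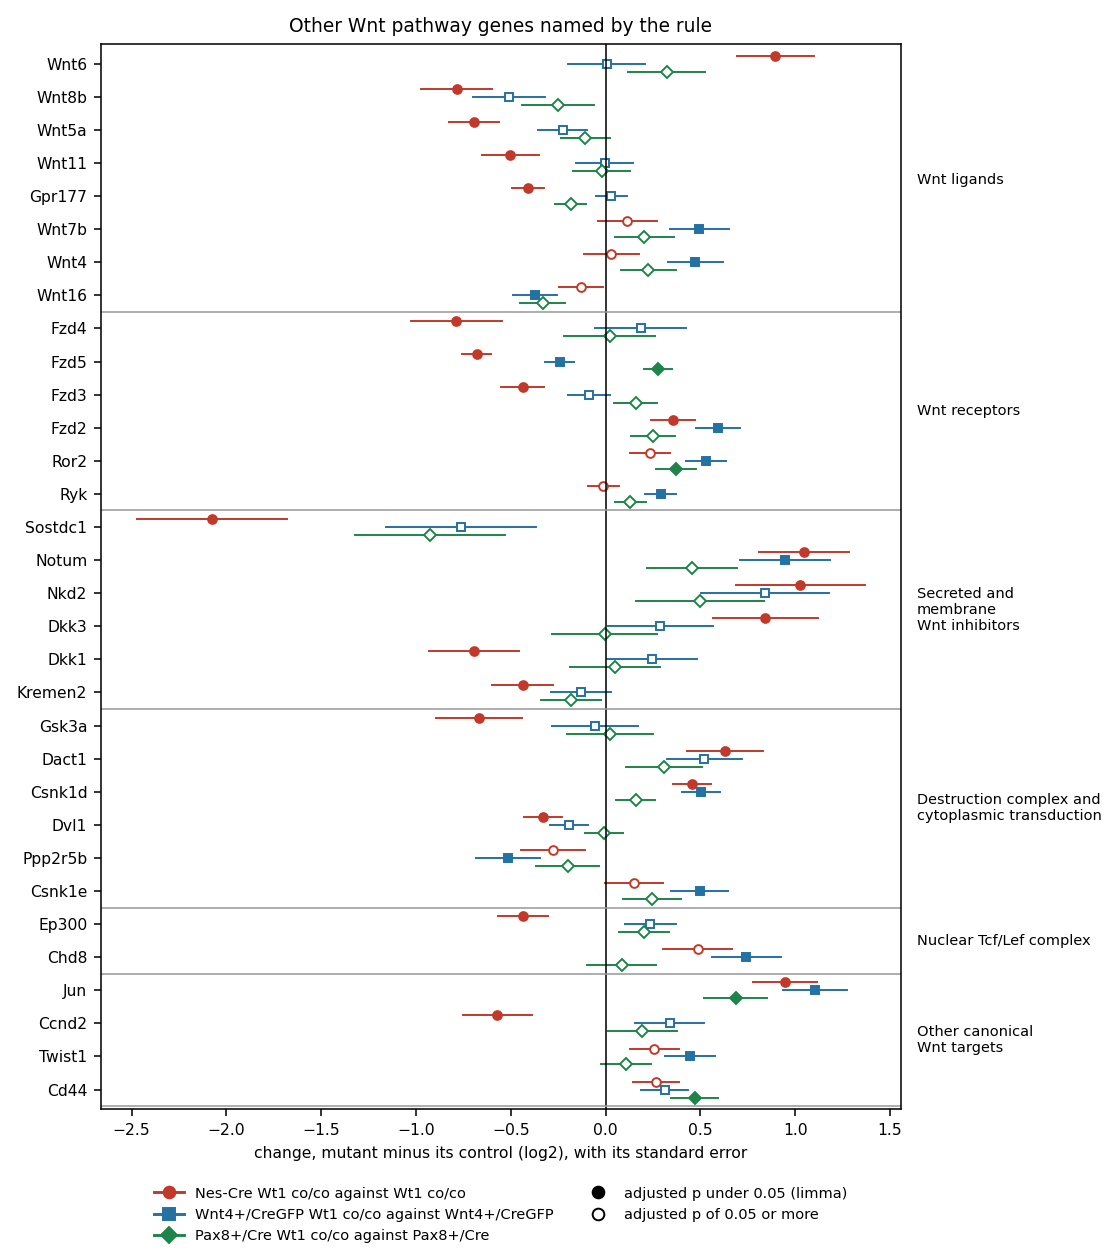
Change in log2 level (horizontal axis, mutant minus control, with its standard error) of the other Wnt pathway genes called in at least 1 mutant with groups that do not overlap, by list; filled points have an adjusted p under 0.05. *Jun* is filled on the right of 0 in all 3 mutants, and *Fzd5* is at -0.68, -0.24 and 0.28.

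The genes whose pattern was most like each of the 8 were found by Pearson's correlation over the 24 arrays, with the mean of its array set subtracted from each array. This is a description, since the arrays share groups and litters are not given. *Ccnd1* was most like *Hey1*, a Notch target (r = 0.956), *Nup210* (0.936) and *Sall1*, a nephron progenitor factor (0.935), but without replicate 1 of the *Nes*-driven mutant these were 0.803, 0.659 and 0.646. *Sfrp1* was most like the cadherin *Cdh6* (0.901, and 0.794 without that array), *Unc119b* and *Anxa13*. *Axin2* was most like *Fibcd1* (0.85), *Pscd3* and *Usp28*, *Sfrp2* like *Smarca1* (0.883), *BC020002* and *Ift81*, and *Ctnnb1* like *Rap1b* (0.871), *Shfm1* and *Bzw1*, and these 3 first matches were 0.871, 0.878 and 0.871 without that array. *Nkd1* was most like *Cdh13* (0.852, and 0.836 without that array), *Colec12* and *Stat5a*, and *Tcf7* like *Rcor2* (0.855 and 0.82), *Smyd3* and *Nek4*. *Lef1*, detected in only 3 arrays, was most like *H2afx* (0.815), *H1fx* (0.756) and *Six2* (0.731), and these were 0.703, 0.64 and 0.552 without that array. Among the 8 genes themselves the highest value was that of *Ccnd1* and *Sfrp1*, at 0.743, and 0.332 without that array. *Axin2* and *Ccnd1* were at 0.553, and at 0.623 without that array, then the highest of these values.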

How the data were processed

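Total RNA of whole E18.5 kidneys (8 groups of 3) was hybridised by the authors to Illumina MouseRef-8 v2 arrays. The deposited table holds 1 intensity and 1 detection p-value per gene symbol and array, not background-corrected or normalized, and a second deposited table holds the ratio of each array to the median control of its set of 6 arrays. Replicates 1 and 3 are exchanged between the 2 tables in every group (16 arrays), and the text follows the intensities.

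With R 4.3.3 and limma 3.58.1, the background mean and SD of each array were read from intensities at detection p near 0.5, 0.16 and 0.84, followed by normexp correction, an offset of 16, quantile normalization and log2. The default neqc inferred a background SD of 113 to 397, against 3.78 to 12.7 read directly, and serves as an alternative. The filter kept genes detected (p under 0.01) on 3 or more of the 24 arrays (10371 of 17951, 57.8%). The limma model had a mean for each group and used all 24 arrays (16 residual degrees of freedom), with empirical Bayes moderation and Benjamini-Hochberg adjustment over all tested genes at 0.05. The median standard error was 0.15 (log2), and 3 arrays per group limit the precision. The spread is shared by all groups, while the *Nes*-Cre *Wt1* co/co arrays spread more, so p-values of the *Nes*-driven comparison can be too small. For *Sfrp1* the SE was 0.25 in the shared fit and 0.35 on the 6 arrays alone. Fits with a single array left out still share the spread and do not address this. Where the labels do not show separate litters, p-values measure only the spread between these samples. Fold bounds written as "at least" set the brighter group's mean against the higher of the dim gene's own level and the lowest level detected. They hold for the reported processing only.

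Named are all 8 genes, from each pathway list the called genes whose groups do not overlap (at most 6 per list and comparison by size of change), and the 3 genes most alike to each. The genes and lists were chosen with earlier results of these data known. Alternatives were other background corrections, scaling, filters, fits on 6 arrays, a replicate block, array weights, a fold of 1.5, another control and single arrays left out, and 2 that combine another control with leaving out an array were chosen after seeing the data. The fit was tested on simulated data in which each gene had the same spread in all groups. That test therefore does not cover the wider spread of the *Nes*-Cre *Wt1* co/co arrays. *Wt1* was not analysed here.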

Additional observations from a re-analysis of the deposited data

Results flagged for a closer look

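Effects of the 3 drivers that differed by limma's test of the difference itself are listed here. The main control of the *Nes*-driven mutant lacks Cre, while those of the other mutants carry it with wild-type *Wt1*. Driver and kind of control thus cannot be told apart in differences with the *Nes*-driven mutant. The effect on *Sfrp1* differed between the *Nes*- and *Pax8*-driven mutants by -1.66 (adjusted p = 0.0197), a call that was lost without *Wt1* co/co replicate 1 or *Pax8*+/Cre replicate 1 (adjusted p = 0.0577 and 0.0563) and with *Nes*-Cre kidneys as the control (-0.68, adjusted p = 0.193, and -0.31, adjusted p = 0.446, also without replicate 1 of the *Nes*-driven mutant). The effect on the receptor gene *Fzd5* differed between the *Nes*- and *Pax8*-driven mutants by -0.96 (adjusted p = 4.72e-05), which was called under all 22 alternatives. Between the *Nes*- and *Wnt4*-driven mutants *Fzd5* differed by -0.44 (adjusted p = 0.0337), lost in 11 of 22 alternatives, and between the *Wnt4*- and *Pax8*-driven mutants by -0.52 (adjusted p = 0.0477), lost in 14 of 21. The effect on *Gpr177* differed between the *Nes*- and *Wnt4*-driven mutants by -0.44 (adjusted p = 0.049), lost in 14 of 22 alternatives, 2 of which turned its sign.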

How the results depend on the processing

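Genes called in the *Nes*-driven mutant numbered 2678, and 7 when fitted on its 6 arrays alone, 1407 at a fold of 1.5 and 1579 to 3013 with 1 array left out. With *Nes*-Cre kidneys as the control they numbered 4062 (4152 also without replicate 1), and 1697 with the change of *Nes*-Cre against wild type subtracted. In the *Wnt4*-driven mutant they numbered 1623, and 2673 on 6 arrays, 3500 with array weights, 820 at a fold of 1.5 and 943 to 2790 with 1 array left out. In the *Pax8*-driven mutant they numbered 519, and 1218, 3421, 309 and 256 to 1222 in the same order. Of the 8 Wnt genes, the 2 calls in the *Nes*-driven mutant became 1 without the filter, with detection in all 24 arrays (which drops *Nkd1*), with array weights and with *Nes*-Cre kidneys as the control with or without replicate 1, 0 on 6 arrays, and 1 to 4 with 1 array left out, and in the deposited ratios they were *Sfrp1* and *Ccnd1* instead of *Sfrp1* and *Nkd1*. The 3 in the *Wnt4*-driven mutant became 0 in the deposited ratios, 2 on 6 arrays, 5 with array weights, 1 at a fold of 1.5 and 0 to 4 with 1 array left out. The 1 in the *Pax8*-driven mutant became 2 with the default background correction, 0 in the deposited ratios, 3 with array weights, 0 at a fold of 1.5 and 0 to 3 with 1 array left out. *Nes*-Cre against wild type gave 17 genes, and 4 with the default background correction, 11 with none, 9 with an offset of 50, 4 with 75th percentile scaling, 0 in the ratios, 71 without the filter, 2 with detection in all arrays, 2 on 6 arrays, 39 with array weights and 16 to 75 with 1 array left out.

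The difference between *Nes*- and *Wnt4*-driven effects gave 277 genes, and 135 with 75th percentile scaling, 1087 with array weights, 1779 with *Nes*-Cre kidneys as the control (2296 also without replicate 1) and 128 to 845 with 1 array left out. None of the 8 was called by limma there (4 at an unadjusted p under 0.05), and 1 without background correction, with detection in all arrays and with *Nes*-Cre kidneys as the control with or without replicate 1, 2 with array weights and 0 to 3 with 1 array left out. The *Nes*- minus *Pax8*-driven difference gave 209, and 447, 1400, 1587 (2064) and 83 to 768 in the same order. Its 1 call among the 8 became 2 with the default background correction or 75th percentile scaling, 3 with array weights, 0 with *Nes*-Cre kidneys as the control and 0 to 3 with 1 array left out. The *Wnt4*- minus *Pax8*-driven difference gave 24, and 48 with the default background correction, 37 with 75th percentile scaling, 873 with array weights and 6 to 247 with 1 array left out. None of the 8 was called there by limma (2 at an unadjusted p under 0.05), and 1 with the default or no background correction, an offset of 50 or array weights, and 0 to 1 with 1 array left out.

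Same-numbered replicates did not deviate together (correlations of -0.2 to 0.073, 0 of 12 pairs over 0.1). With the replicate number as a block, the 24 genes became 14, and all 6 calls among the 8 genes were kept.

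Among called changes, signs turned as follows, and those of uncalled changes in the *Nes*-driven mutant (*Axin2*, *Tcf7* and *Lef1*) are given with their values above. *Sfrp1* in the *Nes*-driven mutant was 0.0404 against *Nes*-Cre kidneys without replicate 1, and *Axin2* in the *Wnt4*-driven mutant was -0.0155 in the deposited ratios, where *Fzd2* (*Nes*-Cre) and *Ryk* (*Wnt4*+/CreGFP) were -0.0414 and -0.0751. With 75th percentile scaling, *Wnt8b*, *Wnt11* and *Kremen2* (*Nes*-Cre) and *Wnt16* (*Wnt4*+/CreGFP) were 0.014, 0.0946, 0.187 and 0.0759. Against *Nes*-Cre kidneys, *Gpr177*, *Dkk1*, *Kremen2*, *Gsk3a* and *Dvl1* were 0.0735, 0.149, 0.0464, 0.314 and 0.228, and 0.0515, 0.289, 0.0593, 0.382 and 0.124 without replicate 1, when *Wnt11* was 0.0523. The difference in *Gpr177* was then 0.0426 and 0.0206. The causes were not tested.

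Of called genes, 45.3%, 45.3% and 37% were higher in the *Nes*-, *Wnt4*- and *Pax8*-driven mutants, 66.3%, 56.2% and 31.9% with 75th percentile scaling (median of all genes 0.142, 0.144 and 0.0105), and 9.95%, 7.87% and 51.8% in the deposited ratios (-0.191, -0.131 and 0.126). Signals of *Lef1*, *Nkd1* and *Tcf7* near background limit what can be read from them.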
